A study of Homo sapiens with 8 samples.

Results

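The 30 genes described here encode enzymes of cholesterol and fatty acid synthesis and the proteins that regulate them. They were taken as a given list of gene symbols, chosen, like the other lists below, with earlier results of these data known. Counts set against all genes are therefore descriptions and not an independent check. A gene's value was the summed FPKM of every listed RefSeq transcript that belongs to it. FPKM counts the fragments assigned to a transcript per kilobase of its length and relative to all mapped fragments. It allows for length and depth but not for GC content, so comparisons of level between genes are approximate. All 30 genes were found among the 14528 named genes of the deposited table, and all 30 reached a mean FPKM of 0.5, as 12106 of the named genes did.

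Polyadenylated RNA came from SQ20B cells, an established human line of head and neck squamous cell carcinoma, in 4 samples maintained in normoxia and 4 samples maintained in 0.5% O2 for 16 h, with the same medium in both groups. Each condition is given in the table as a single FPKM value over its 4 samples. The spread between replicates is therefore not known here, no test was made, and every change below is the difference between 2 values without a replicate check. Read counts and depth per sample were not analysed here. Of 9 squamous epithelial markers, 7 were listed, among them KRT5 with 398 FPKM in normoxia and 442 in hypoxia and TP63 with 42.8 and 44.6. Of these 7, 3 had higher and 4 had lower values in hypoxia, with a median log2 change of -0.21, and KRT6A fell from 5.10 to 3.26 FPKM (-0.63). Of 6 fibroblast markers 2 were listed, and of 5 leukocyte markers 2, and none of the listed ones reached a mean of 0.5 FPKM. Of 5 endothelial markers only CDH5 was listed, with 4.78 FPKM in normoxia and 2.83 in hypoxia. A marker that was not listed has no value here and cannot be read as low, since LDHA of the hypoxia list below was not listed either. The 7 listed genes of a short hypoxia list had log2 changes from 1.36 (SLC2A1) to 4.77 (CA9).

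Cholesterol is built from acetyl-CoA through mevalonate, isoprenoid diphosphates and squalene, and several of the steps after squalene use molecular oxygen. Fatty acids are built from the same acetyl-CoA, and the desaturases that place double bonds in them also use oxygen. Both branches are controlled by the SREBP transcription factors, which SCAP escorts from the endoplasmic reticulum to the Golgi for activation and which INSIG proteins hold back when sterols are plentiful.

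Changes were computed as log2((hypoxia FPKM + 0.1)/(normoxia FPKM + 0.1)), and a gene was called higher or lower, or said to have risen or fallen, when this corresponded to at least 1.5-fold. Hypoxic cells had 15 of the 30 genes called higher and 0 called lower. Among the 12106 genes that passed 0.5 FPKM, 9.95% were called higher and 11.2% lower. Without regard to size, 26 of the 30 genes were higher in hypoxia and 4 were lower, against 43.6% of all genes higher. At a limit of 2-fold, 4 of the 30 were called higher (INSIG2, STARD4, SCD and MSMO1), against 3.21% of all genes. The median log2 change was 0.54 for the 30 genes and -0.07 for all genes.

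The summed FPKM of the 30 genes was 1645 in normoxia and 2464 in hypoxia, or 0.307% and 0.537% of all listed FPKM. The FPKM values of the whole table summed to less in hypoxia, so scaling the columns to equal sums moved the median of all genes from -0.07 to 0.15. It then called 18.3% of all genes higher and 4.94% lower, and 18 of the 30 higher and 0 lower. The distance between the median of the 30 genes and that of all genes was 0.61 on the log2 scale with the values as deposited and 0.61 with equal sums. Such scaling shifts all genes by nearly the same amount, so this distance could hardly change and is no check of the result. Within bulk RNA, a change in every cell and a change in the share of cells that express a gene cannot be told apart.

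**Figure D1:**
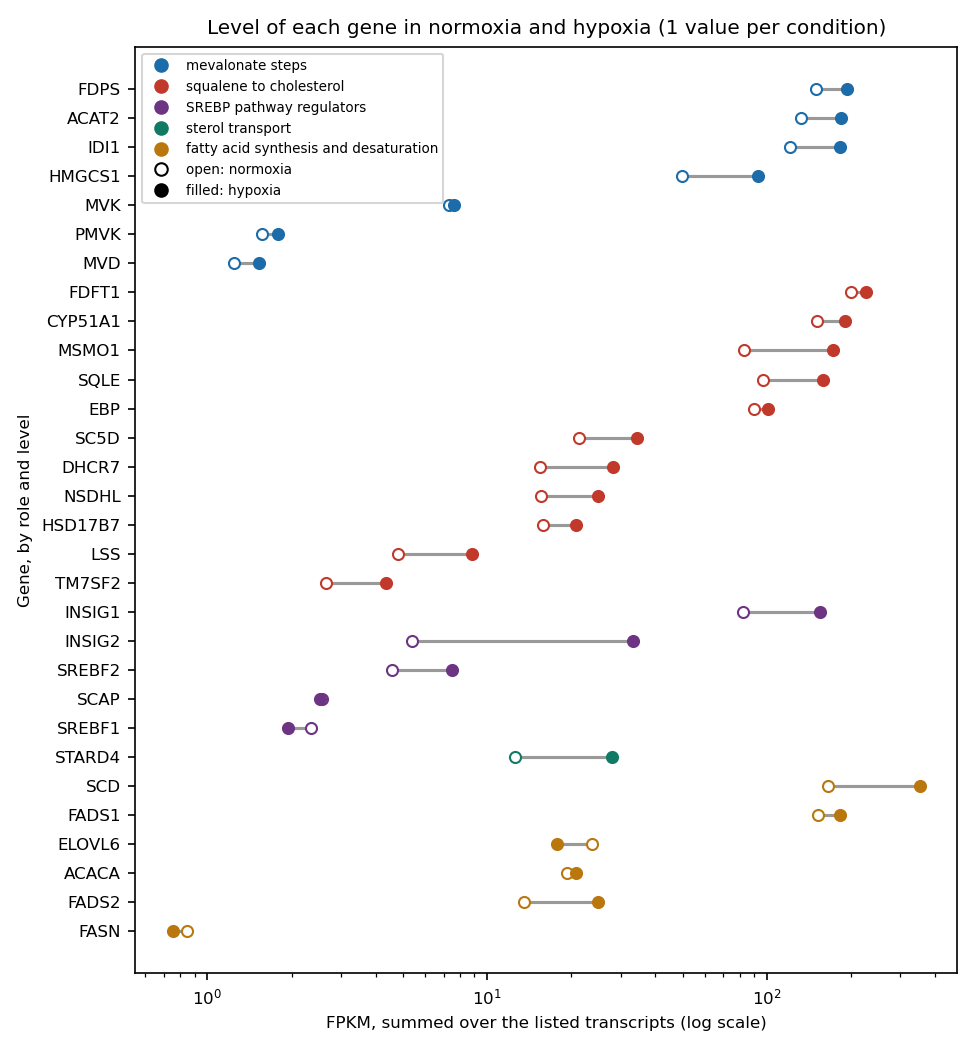
Level of each of the 30 genes as FPKM summed over its listed transcripts, on a log axis, with an open circle for normoxia and a filled circle for hypoxia, coloured by role; each circle is a single value over the 4 samples of its condition. The filled circle lies to the right for 26 genes, INSIG2 has the longest line (5.39 to 33.3 FPKM), and FASN is the lowest gene.

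The largest change was in INSIG2, one of the paired proteins that retain the SCAP and SREBP complex in the endoplasmic reticulum. Its only listed transcript, NM_016133, had 5.39 FPKM in normoxia and 33.3 in hypoxia, and so rose 6.08-fold (log2 change 2.60). INSIG2 lies on chromosome 2 (118846028 to 118868573, GRCh37, plus strand), and its change ranked 39th among the 12106 genes. INSIG1, its paralogue and itself a classical SREBP target, rose from 82.5 to 155 FPKM (log2 change 0.90). INSIG1 lies on chromosome 7 (155089486 to 155101945, plus strand). Its level was 15.3 times that of INSIG2 in normoxia and 4.64 times in hypoxia, so the paralogues came closer while INSIG1 stayed the more abundant.

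SREBF2, which encodes the SREBP that mainly drives cholesterol genes, rose from 4.58 to 7.51 FPKM (log2 change 0.70). SREBF1, which encodes the SREBPs more associated with fatty acid genes, had 2.35 FPKM in normoxia and 1.94 in hypoxia (-0.26). The level of SREBF2 was thus 1.95 times that of SREBF1 in normoxia and 3.88 times in hypoxia. SCAP, the escort, was nearly level at 2.58 and 2.54 FPKM (-0.02), and its sign turned with equal sums (0.20) and with the median of all genes set to 0 (0.05). Of the 5 regulators, INSIG1, INSIG2 and SREBF2 were called higher and none was called lower. STARD4, a soluble carrier of sterols between membranes, had the second largest change of the 30 genes, from 12.6 to 28.1 FPKM (log2 change 1.15). STARD4 lies on chromosome 5 (110831731 to 110848288, minus strand).

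The 7 genes of the mevalonate steps all had higher values in hypoxia, and 2 of them were called higher. HMGCS1, which makes HMG-CoA, rose from 49.9 to 92.9 FPKM (log2 change 0.90). IDI1, which isomerises isopentenyl diphosphate, rose from 121 to 183 FPKM (0.60) and lay just above the 1.5-fold limit of 0.58. ACAT2, the thiolase that opens the pathway, had 132 and 184 FPKM (0.47). FDPS, which makes farnesyl diphosphate, had 149.9 FPKM in normoxia and 193 in hypoxia (0.37). The kinases MVK and PMVK and the decarboxylase MVD, which act in succession between mevalonate and isopentenyl diphosphate, had log2 changes of 0.06, 0.18 and 0.27. These 3 were also the least abundant of the group, with at most 7.60 FPKM in either condition, whereas ACAT2, IDI1 and FDPS each had at least 121 FPKM in both. The median log2 change of the group was 0.37, and 0.59 with equal sums. In the GENCODE annotation, ACAT2 overlaps TCP1 by 615 bases on the opposite strand, and TCP1 had 349 FPKM in normoxia and 218 in hypoxia. The libraries were stranded and Cufflinks was run with standard parameters, but the sources used here name no strand setting. Reads in that stretch may therefore have been assigned to either gene.

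From squalene synthase to cholesterol, all 11 genes had higher values in hypoxia and 7 were called higher, with a median log2 change of 0.69. MSMO1, a methylsterol monooxygenase that acts in the removal of methyl groups from the sterol, rose most in this arm, from 83.1 to 172 FPKM (log2 change 1.05). SQLE, the squalene epoxidase that makes the first oxygenation, rose from 96.9 to 158 FPKM (0.71). LSS, which closes the sterol rings, rose from 4.80 to 8.84 FPKM (0.87), and DHCR7, the reductase of the last step in one branch, from 15.4 to 28.1 FPKM (0.86). SC5D, the lathosterol oxidase, rose from 21.3 to 34.4 FPKM (0.69). NSDHL, a dehydrogenase that acts after MSMO1, rose from 15.6 to 24.9 FPKM (0.67).

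TM7SF2, a sterol reductase, rose from 2.65 to 4.36 FPKM (log2 change 0.70). Its value comes from a noncoding variant, NR_102367, the only TM7SF2 transcript listed, and with 1 FPKM added instead of 0.1 its log2 change was 0.55, below the limit. The remaining 4 genes of the arm did not reach 1.5-fold. FDFT1, squalene synthase and the most abundant of the arm, had 199.5 FPKM in normoxia and 227 in hypoxia (0.19). CYP51A1, the lanosterol demethylase, had 151 and 191 FPKM (0.34). HSD17B7, a sterol ketoreductase, had 15.9 and 20.8 FPKM (0.39), and EBP, a sterol isomerase, had 90.3 and 101 FPKM (0.17). A pseudogene of HSD17B7, HSD17B7P2, was listed with 2.01 and 3.39 FPKM, so the split of shared reads makes the HSD17B7 value uncertain. Over the 18 enzymes from ACAT2 to DHCR7, every gene was higher in hypoxia, 9 were called higher, and the median log2 change was 0.54.

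Among the 6 fatty acid genes the changes were unequal. SCD, the stearoyl-CoA desaturase that makes monounsaturated fatty acids, rose by 1.09 on the log2 scale, from 165 to 352 FPKM. No other of the 30 genes was as abundant in hypoxia, and SCD made up 10.0% of the summed FPKM of the 30 genes in normoxia and 14.3% in hypoxia. FADS2, a desaturase of polyunsaturated fatty acids, rose from 13.6 to 24.9 FPKM (0.87). FADS1, its neighbour on chromosome 11 and the desaturase that acts after it, had 153 and 183 FPKM (0.26). The annotated spans of FADS1 and FADS2, introns included, overlap by 29692 bases on opposite strands, which is the whole FADS1 span. Another gene, FEN1, overlaps the FADS2 span by 4259 bases on the same strand. FEN1 had 116 FPKM in normoxia and 97.0 in hypoxia. These spans are those of GENCODE, whereas the FPKM values rest on RefSeq transcripts, whose overlap was not examined. Reads in any stretch shared by the RefSeq transcripts may have been assigned to either gene, and the overlap of exons alone was not examined.

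The genes that build the saturated chain differed from the desaturases in value. ACACA, the acetyl-CoA carboxylase of the committed step, had 19.3 FPKM in normoxia and 20.8 in hypoxia (log2 change 0.11). FASN, the fatty acid synthase, was the least abundant of the 30 genes, with 0.845 FPKM in normoxia and 0.752 in hypoxia (-0.15, and 0.05 with equal sums). ELOVL6, which elongates palmitate, had 23.7 and 17.8 FPKM (-0.41), the lowest change of the 30 genes but short of the 1.5-fold limit. The median of the 6 genes was 0.19, and 0.41 with equal sums. ELOVL6 and SREBF1 were below 0 under every scaling that was tried.

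**Figure D2:**
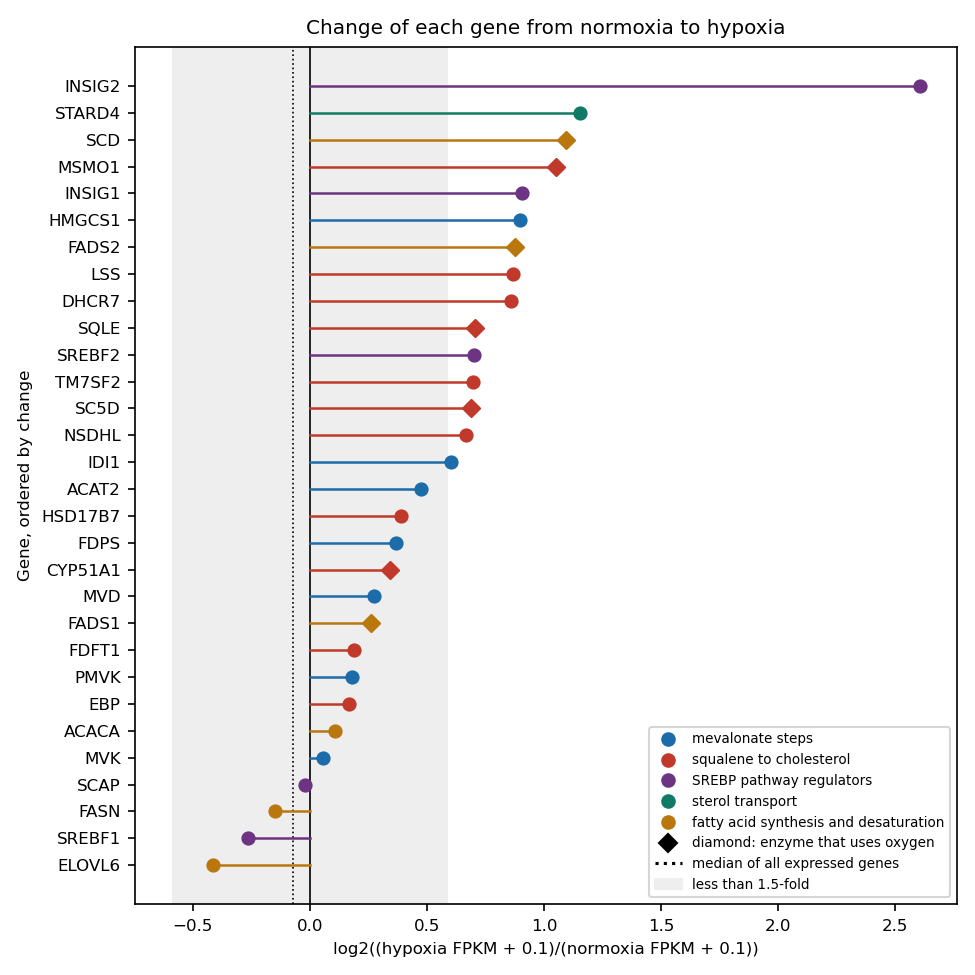
Log2 change of each of the 30 genes from normoxia to hypoxia, ordered by size and coloured by role, with diamonds for enzymes that use oxygen, a dotted line at the median of all genes (-0.07) and a grey band for changes under 1.5-fold. INSIG2 stands at 2.60, 15 genes lie to the right of the band, none lies to its left, and 4 lie below 0.

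Oxygen is a substrate of 7 of the enzymes, namely SQLE, CYP51A1, MSMO1, SC5D, SCD, FADS1 and FADS2. All 7 had higher values in hypoxia, 5 of them were called higher, and their median log2 change was 0.71. Of the other 17 enzymes, 15 had higher values, 6 were called higher, and the median was 0.37. The summed FPKM of the oxygen-using enzymes was 684 in normoxia and 1117 in hypoxia, a ratio of 1.63, and that of the other enzymes was 851 and 1119, a ratio of 1.32. The ranges of the groups overlapped, from 0.26 to 1.09 for the oxygen-using enzymes and from -0.41 to 0.90 for the others. The groups also differed in pathway arm, since all 7 genes of the mevalonate steps are among the other enzymes. Within the steps from squalene synthase onward, the oxygen users ranged from 0.34 (CYP51A1) to 1.05 (MSMO1). The other enzymes of that arm ranged from 0.17 (EBP) to 0.87 (LSS). SCD, with 165 and 352 FPKM, held a large part of the summed FPKM of the oxygen-using enzymes. The difference between the groups was not tested, and oxygen use cannot be told apart from pathway arm here.

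The genes with the lowest levels were not among those called. When all genes were split by mean FPKM into 4 bins of like size, 5 of the 30 lay in the lowest bin, below 2.72 FPKM (FASN, MVD, PMVK, SREBF1 and SCAP), and 0 of these were called higher, whereas 15 of the other 25 were. In the bins that followed, 3 of 4, 5 of 8 and 7 of 13 of the synthesis genes were called. Over all genes, 17.8%, 11.2%, 6.74% and 4.10% were called higher from the lowest bin to the highest. The synthesis genes thus departed from the order of all genes in the lowest bin, and above it their share also fell with level. The rank correlation of mean FPKM with log2 change was 0.28 over the 30 genes and -0.28 over all 12106 genes. These are correlations across genes of the same libraries, and genes are not independent replicates. GC content was also related to level, with a rank correlation of -0.65 over the 30 genes and -0.35 over all genes. The 5 genes of the lowest bin had a GC content from 59.0% (PMVK) to 65.5% (MVD), against a median of 47.2% over all genes. The rank correlation of GC content with log2 change was -0.49 over the 30 genes and 0.01 over the 11767 genes with a known GC content. In the lowest of 4 bins by GC content, 6 of 7 of the synthesis genes were called higher, against 6.15% of all genes. In the bins that followed, 3 of 7 and 1 of 5 were called, against 9.28% and 12.2%. In the highest bin 5 of 11 were called, against 11.9%, so the share did not fall steadily with GC content. The part of GC content in these changes was not tested. Relative to the median of genes with similar GC content, chosen after the data were seen, 15 of the 30 genes were called higher and 0 lower. Of the 11767 genes, 12.0% were then called higher and 8.58% lower.

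**Figure D3:**
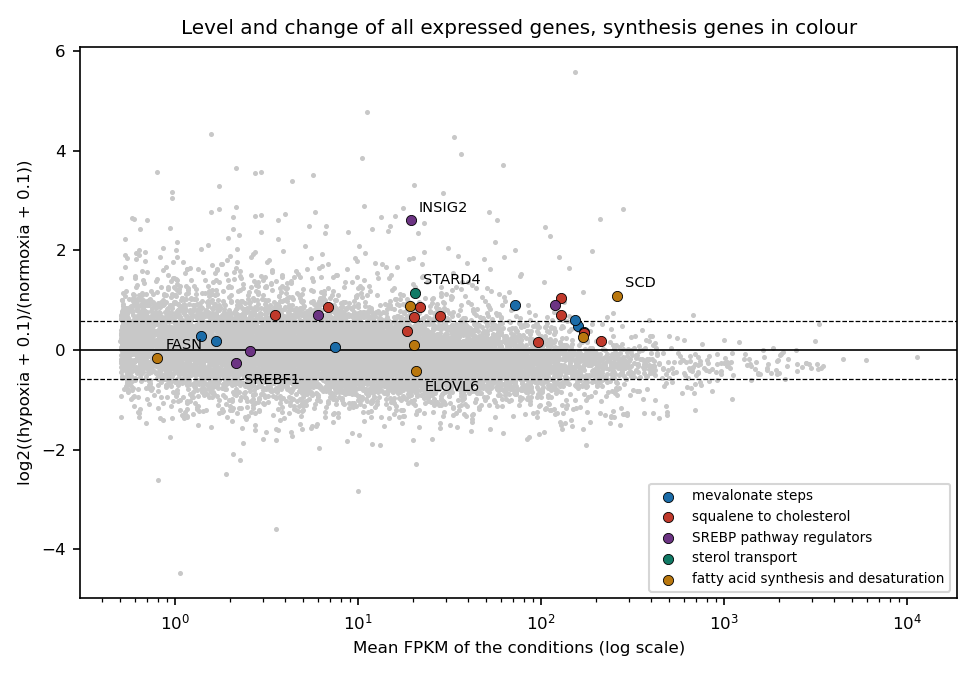
Mean FPKM over the conditions (log axis) against the log2 change from normoxia to hypoxia for all 12106 genes in grey and the 30 synthesis genes in colour, with dashed lines at 1.5-fold. The 5 synthesis genes below 2.72 FPKM lie between the dashed lines, and 15 of the other 25 lie above them.

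The 30 genes had 61 listed transcripts, and 52 of these reached a mean of 0.5 FPKM. Of the 52, 19 were called higher and 1 lower, against 10.5% and 14.3% of all 18190 transcripts above that limit. In 16 genes more than a single transcript was listed, and in all 16 the transcript with the highest FPKM in normoxia was also the highest in hypoxia. No transcript's share of its gene shifted by more than 5.37 percentage points, the value of an LSS transcript, NM_001145436, which went from 32.1% to 26.7%. Both HMGCS1 transcripts rose, with log2 changes of 0.85 for NM_001098272 and 0.94 for NM_002130, and each held between 47.7% and 52.3% of the gene. The main INSIG1 transcripts, NM_005542 and NM_198336, rose alike, with log2 changes of 0.93 and 0.89. The single transcript called lower was a minor form of INSIG1, NM_198337, with 0.714 FPKM in normoxia and 0.316 in hypoxia, which held 0.865% of the gene in normoxia. For MSMO1 the change lay in NM_006745, which rose from 81.1 to 171 FPKM, while NM_001017369 had 2.05 and 1.71 FPKM. The 2 SREBF1 transcripts had log2 changes of -0.07 (NM_001005291) and -0.34 (NM_004176). Values of overlapping transcripts depend on how Cufflinks divides shared reads among them.

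**Figure D4:**
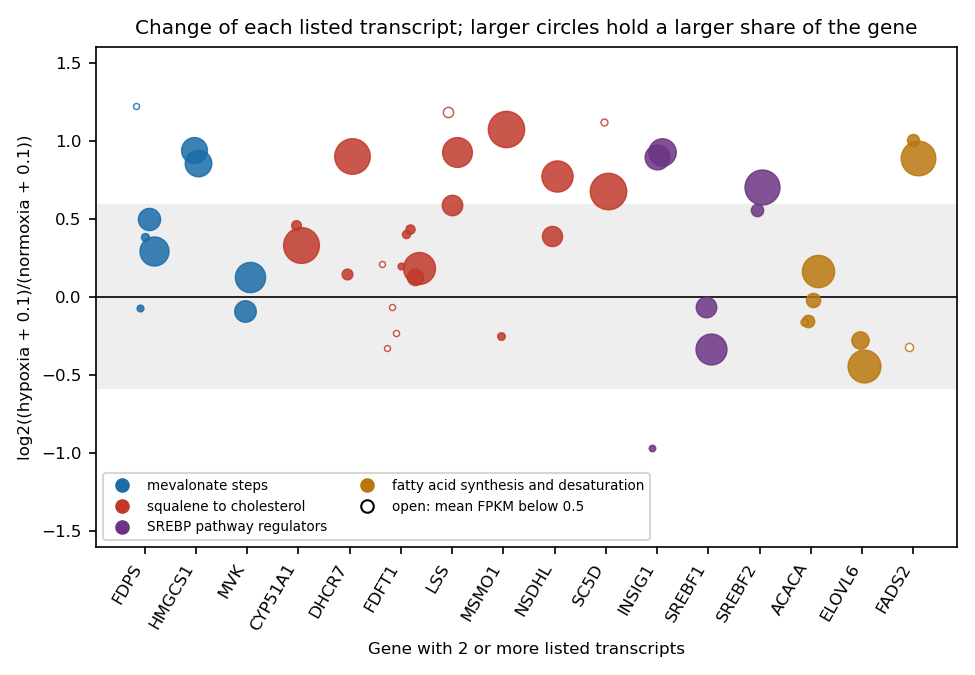
Log2 change of each listed transcript of the 16 genes with more than a single listed transcript; larger circles hold a larger share of the gene's FPKM, open circles have a mean below 0.5 FPKM, and the grey band marks changes under 1.5-fold. The HMGCS1 circles lie close together at 0.85 and 0.94, the large MSMO1 circle is NM_006745, and the 1 filled circle below the band is the minor INSIG1 transcript at -0.97.

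Related genes outside the 30 were described through 4 lists. Of 12 other sterol and isoprenoid genes above the FPKM limit, 2 were called higher and 3 lower, and the median log2 change was -0.13. FAXDC2, a fatty acid hydroxylase domain protein, rose from 0.420 to 0.749 FPKM (log2 change 0.71). PDSS1, which makes the side chain of coenzyme Q, fell from 19.2 to 9.09 FPKM (log2 change -1.07). IDI2, the paralogue beside IDI1 on chromosome 10, fell from 2.72 to 1.33 FPKM (-0.98).

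Of 21 other fatty acid genes, 3 were called higher and 1 lower, with a median of 0.01. ACSS2, which makes acetyl-CoA from acetate, rose from 11.7 to 32.8 FPKM (log2 change 1.47), and SCD5, a second stearoyl-CoA desaturase, from 8.89 to 14.2 FPKM (0.67). The other gene called higher was ELOVL3, an elongase, with 0.519 FPKM in normoxia and 0.838 in hypoxia (0.60). Its mean level and its change were both just above the limits. MID1IP1, an activator of acetyl-CoA carboxylase, fell from 15.8 to 8.86 FPKM (-0.83), and MECR, of mitochondrial fatty acid synthesis, had 1.85 and 1.21 FPKM (-0.57). Of 10 further genes of SREBP processing and its regulation, 0 were called in either direction, with a median of 0.08. Their largest values were those of SEC24C and SEC24D, COPII coat subunits (0.55 and 0.28), and their lowest those of the ubiquitin ligase genes RNF139 and FBXW7 (-0.36 and -0.09). Of 15 genes of sterol trafficking, 1 was called higher and 0 lower, with a median of 0.28. It was GRAMD1C, which rose from 3.51 to 6.41 FPKM (0.85). NPC1, which exports cholesterol from lysosomes, had 8.89 and 12.9 FPKM (0.54), and the lowest values were those of OSBP (-0.19) and NCEH1 (-0.14).

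RefSeq promoter windows (GRCh38.p14, from 250 bases before to 50 bases after an annotated start) were given for 26 of the 30 genes, not for ACAT2, FDFT1, SQLE and FASN. They were searched on both strands for TCACNCCAC, the core of a sterol regulatory element, for CCAAT, the box bound by NF-Y, and for ACGTG and GCGTG, the cores of hypoxia response elements. The first of these was found in 1 of the 26 genes, SREBF2, and in 1.32% of 9671 genes above the FPKM limit. CCAAT was found in 19 of the 26 (73.1%) and in 44.2% of those genes, and in 13 of the 14 called genes that have a window, INSIG2 being the exception. GCGTG was found in 22 of the 26 (84.6%) against 58.2%, and ACGTG in 9 (34.6%) against 32.5%. Among the same 14 called genes, 13 held GCGTG and 6 held ACGTG. Over all 35116 windows, TCACNCCAC was in 1.13%, CCAAT in 34.6%, ACGTG in 21.4% and GCGTG in 36.5%. A match describes the letters only and is no measured binding, and the lack of one does not show that an element is absent.

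The windows of the genes with the largest changes among regulators and sterol transport are shown 5′ to 3′ on the gene's strand, with SREBF2 for its sterol element. Capitals mark the searched motifs on either strand. They are INSIG2 at chr2:118088221-118088520 (plus, 1 of 2 windows given for this gene), INSIG1 at chr7:155297628-155297927 (plus), STARD4 at chr5:111512486-111512785 (minus) and SREBF2 at chr22:41832855-41833154 (plus), all in GRCh38.p14.
INSIG2: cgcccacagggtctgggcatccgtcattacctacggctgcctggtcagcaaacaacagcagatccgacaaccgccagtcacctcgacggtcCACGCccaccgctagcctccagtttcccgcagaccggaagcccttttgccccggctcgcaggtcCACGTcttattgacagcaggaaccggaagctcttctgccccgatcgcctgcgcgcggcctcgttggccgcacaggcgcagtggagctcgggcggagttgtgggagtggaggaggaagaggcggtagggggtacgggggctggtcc
INSIG1: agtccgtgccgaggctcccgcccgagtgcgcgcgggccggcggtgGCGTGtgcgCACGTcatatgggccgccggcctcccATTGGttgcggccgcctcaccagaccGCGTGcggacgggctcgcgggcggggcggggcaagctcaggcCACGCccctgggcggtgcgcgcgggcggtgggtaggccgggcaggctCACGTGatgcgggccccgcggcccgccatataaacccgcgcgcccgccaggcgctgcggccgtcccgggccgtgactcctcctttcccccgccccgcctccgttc
STARD4: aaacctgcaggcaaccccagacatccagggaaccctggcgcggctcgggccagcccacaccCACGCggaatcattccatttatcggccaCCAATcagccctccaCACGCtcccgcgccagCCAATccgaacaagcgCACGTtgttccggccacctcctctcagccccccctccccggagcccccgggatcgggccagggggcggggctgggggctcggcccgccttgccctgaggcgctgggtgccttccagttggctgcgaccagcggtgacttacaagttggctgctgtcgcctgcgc
SREBF2: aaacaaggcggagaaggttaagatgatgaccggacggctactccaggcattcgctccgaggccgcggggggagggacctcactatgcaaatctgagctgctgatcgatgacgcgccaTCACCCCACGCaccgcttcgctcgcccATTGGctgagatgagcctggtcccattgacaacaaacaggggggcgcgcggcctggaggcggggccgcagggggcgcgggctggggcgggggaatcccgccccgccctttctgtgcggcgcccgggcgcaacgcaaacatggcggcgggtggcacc

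The paralogues INSIG2 and INSIG1 differed in these letters. The INSIG2 window held 1 ACGTG and 1 GCGTG and no CCAAT on either strand, with the first base of its ACGTG match 95 bases before the start. The INSIG1 window held 3 matches to each of the hypoxia cores, with the ACGTG matches on opposite strands of CACGTG counted separately, and 1 CCAAT. STARD4 held 2 CCAAT boxes, 1 ACGTG and 2 GCGTG. In SREBF2 the sterol element began 133 bases before the start and shared bases with the GCGTG match that followed it, and 1 CCAAT box lay 106 bases before the start.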

How the data were processed

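RNA-seq of SQ20B cells was analysed from the deposited transcript table. Per the authors' methods and the submitters' processing notes, stranded poly(A)+ libraries were aligned with STAR (version 2.3.0.1) to RefSeq hg19, and Cufflinks (version 2.1.1) was run with standard parameters. The FPKM values are the authors' deposited values, 1 per condition over its 4 samples. The authors' fold changes, test statistics, p-values and q-values, also in the table, were not used. The paper gives a target and an average read depth per sample, but no read count for each sample. With 1 value per condition the spread between replicates is unknown, so no interval is given and no test was made.

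RefSeq identifiers were paired with symbols through GRCh38.p14, used for names and promoters only, for 24293 of 24812 entries (97.9%). FPKM was summed per gene, and changes were computed with 0.1 added, which understates changes of low genes. A mean FPKM of at least 0.5 was required. Gene positions and the GC content of each gene's canonical transcript came from GENCODE release 44 on GRCh37 (the build of hg19), and all 30 genes overlapped their listed loci. The 30 genes and all lists were chosen with earlier results of these data known. All 30 genes are named, and of each related list the 2 largest rises and 2 largest falls above the limit, plus IDI2, ELOVL3 and KRT6A, named after their values were seen. Some genes that this rule selects are not reported here. Alternatives covered the pseudocount, limits, scaling and transcripts. The functions were tested on simulated data. Python 3.11.15, numpy 2.4.6, pandas 2.3.3 and matplotlib 3.10.9 were used.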

Additional observations from a re-analysis of the deposited data

How the results depend on the processing

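No paired analysis was possible because the table gives 1 value per condition and none per replicate, and for the same reason no replicate could be left out. Without a spread between replicates, a small change cannot be told from variation between samples, most of all for genes near 1 FPKM. The median log2 change of the 30 genes, 0.54, was 0.51 with 1 FPKM added, 0.60 with a mean of at least 1 FPKM (29 genes), 0.76 with equal sums, 0.61 with the median of all genes set to 0, 0.68 after quantile normalization and 0.47 with coding transcripts only (29 genes). It was 0.59 relative to genes of similar GC content and 0.67 relative to genes of similar FPKM, both chosen after the data were seen. The number of genes called higher, 15, was 4 at a limit of 2-fold, against 3.21% of all genes. Under the other settings it was between 14 and 19. The share of all genes called higher under these settings ran from 5.94% with 1 FPKM added to 20.6% at the smallest fold limit, where the 19 arose. The number called lower, 0, was 1 (ELOVL6) at the smallest fold limit tried, against 27.8% of all genes. It was 0 under the others, against 2.62% to 11.8% of all genes. Of the 15 genes called higher, 14 passed the 1.5-fold limit under all 11 settings that kept it, TM7SF2 being the exception. The signs of SCAP and FASN turned under some scalings, and those of the other 28 genes did not. The group medians ranged from 0.29 to 0.68 for the mevalonate steps, from 0.64 to 0.91 for the steps from squalene synthase onward and from 0.18 to 0.41 for fatty acid genes.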
